A study of Mus musculus with 20 samples.

Results

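The Hippo pathway genes examined here are those of the transcriptional co-activators YAP and TAZ, their DNA-binding partners of the TEAD family, and a group of kinases, regulators and targets around them. In this pathway the kinases LATS1 and LATS2 phosphorylate YAP and TAZ, which keeps them out of the nucleus. Where the kinases are inactive, YAP and TAZ enter the nucleus and bind TEAD proteins, which carry them to DNA. In skin, YAP is known for its part in the proliferation of basal epidermal cells and in the response of keratinocytes to stiffness and wounding. Phosphorylation and localization of these proteins are not read by RNA-seq, so the values below describe transcript levels only. The members were 10 genes taken by name from the expression table: Yap1 and Wwtr1 (which encodes TAZ), Tead1, Tead3, Lats1, Lats2, Amotl2, Ctgf, Cyr61 and Ankrd1. They take up 11 of the 53380 rows of the table, because 2 rows carry the name Lats2. One of these rows was at 0 in all 20 libraries, and Lats2 below is the other one.

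Bulk RNA-seq was performed on 5 populations of cells sorted from the dorsal epidermis of mice. The populations were hair follicle stem cells (HFSCs; α6+Sca1-CD34+, 4 libraries), dendritic epidermal T cells (DETCs; α6-Sca1lowThy1+, 5 libraries), Thy1hi basal keratinocytes (α6+Sca1+Thy1hi, 4 libraries), Thy1- basal keratinocytes (α6+Sca1+Thy1-, 4 libraries) and YFP+ Thy1hi keratinocytes (3 libraries). The labels give every library the genotype Thy1.2CreERT2-Rosa26-EYFP and no treatment, and ages that rise by a week per sample from 8 to 27 weeks. The study's methods instead give wild-type C57BL/6J mice of 8 weeks for the 4 populations without YFP, and tamoxifen-induced Thy1-CreERT2;R26-EYFP mice for the YFP+ cells, in which a Thy1 promoter drives the recombinase, so only cells that use this promoter can be labelled. The label of the YFP+ cells names them Sca1-, while the sample titles and the study name them Sca1+. The study's legends give pooled mice for the sort and single mice for the heat map, so p-values measure only the spread between these samples, which may be technical. The labels name alternative library kits and tie none of them to a sample, so kit and population cannot be told apart.

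Each library held between 7781256 and 12982393 reads on genes, of which the ribosomal RNA locus Rn45s took 13.1% to 41.5%. Values are normalized counts, that is, reads divided by 1 size factor per library (0.729 to 1.43). The sorted populations carried their markers: the summed level of 7 T cell markers was 19486 to 40345 in DETC libraries and at most 429 elsewhere, and the summed level of 6 hair follicle stem cell markers was 5771 to 9218 in HFSC libraries and at most 2131 elsewhere. Basal keratinocyte transcripts were also present in DETC libraries, with Krt5 at 11135 ± 4949 (SD, n = 5) against 67226 ± 15188 (n = 4) in Thy1hi cells. HFSC replicate 4 stood apart from the other HFSC libraries. Rn45s took 13.1% of its reads, against 38.3% to 41.5% in the others. Its size factor was 1.43, against 0.866 to 0.935. All 12 listed immediate early and heat shock genes were lower in HFSC replicate 4 than in each of the 19 other libraries. They were at 1.67% to 21.4% of the mean of HFSC replicates 1 to 3. This list was chosen with earlier results of these data known, and the share of all genes lowest in that library was not computed. Among the DETC libraries, library a (the labels give 2 DETC libraries no matching number, and they are named a and b here) had the lowest level of each of 7 basal keratinocyte markers.

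TEAD proteins bind DNA at the motif GGAATG, so the promoters of the members were searched for it on both strands. RefSeq promoters (GRCm38.p6, 250 bases before the start site and 50 after it) were found for 8 members, which have 12 promoters between them. The motif was present in 9 of these 12 promoters, belonging to 7 of 8 members, and in 14.7% of all 32851 promoters in the table. Some of these promoters overlap: those of Wwtr1 share most of their bases and the same motif copy, and those of Tead3 overlap in part. The 14.7% counts promoters and not genes, so it cannot be set beside the share of members. A match of 6 letters is a description of the sequence and not evidence of binding. The promoters of 3 target genes are shown because their transcripts behaved differently in these cells: Cyr61 was abundant, Amotl2 intermediate and Ankrd1 nearly absent, and all 3 contain the motif. Capitals mark GGAATG or, where the motif lies on the other strand, its reverse complement CATTCC. The Cyr61 promoter (chr3:145649936-145650235, minus strand) and the Amotl2 promoter (chr9:102717554-102717853, plus strand) have 1 copy each, on the strand opposite to the gene and starting 103 and 65 bases before the start site. The Ankrd1 promoter (chr19:36119795-36120094, minus strand) has 2 copies on the strand of the gene, of which the farther one starts 210 bases before the start site.
Cyr61: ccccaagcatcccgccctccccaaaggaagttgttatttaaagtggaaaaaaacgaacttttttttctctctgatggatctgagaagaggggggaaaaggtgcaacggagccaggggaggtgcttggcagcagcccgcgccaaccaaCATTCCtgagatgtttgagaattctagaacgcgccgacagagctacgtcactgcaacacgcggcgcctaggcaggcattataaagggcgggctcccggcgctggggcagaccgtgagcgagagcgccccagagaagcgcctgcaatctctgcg
Amotl2: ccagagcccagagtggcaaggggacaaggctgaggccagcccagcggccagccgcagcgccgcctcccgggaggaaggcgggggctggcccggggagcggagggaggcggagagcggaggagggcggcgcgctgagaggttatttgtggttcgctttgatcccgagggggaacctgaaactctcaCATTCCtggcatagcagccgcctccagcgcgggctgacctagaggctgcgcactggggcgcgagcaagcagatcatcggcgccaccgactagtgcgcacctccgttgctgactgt
Ankrd1: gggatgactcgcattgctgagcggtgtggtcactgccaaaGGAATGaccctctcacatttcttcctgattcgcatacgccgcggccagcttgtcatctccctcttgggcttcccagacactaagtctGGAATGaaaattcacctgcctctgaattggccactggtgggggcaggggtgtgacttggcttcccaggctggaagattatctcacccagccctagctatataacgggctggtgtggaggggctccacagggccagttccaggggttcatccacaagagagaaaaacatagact

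**Figure D1:**
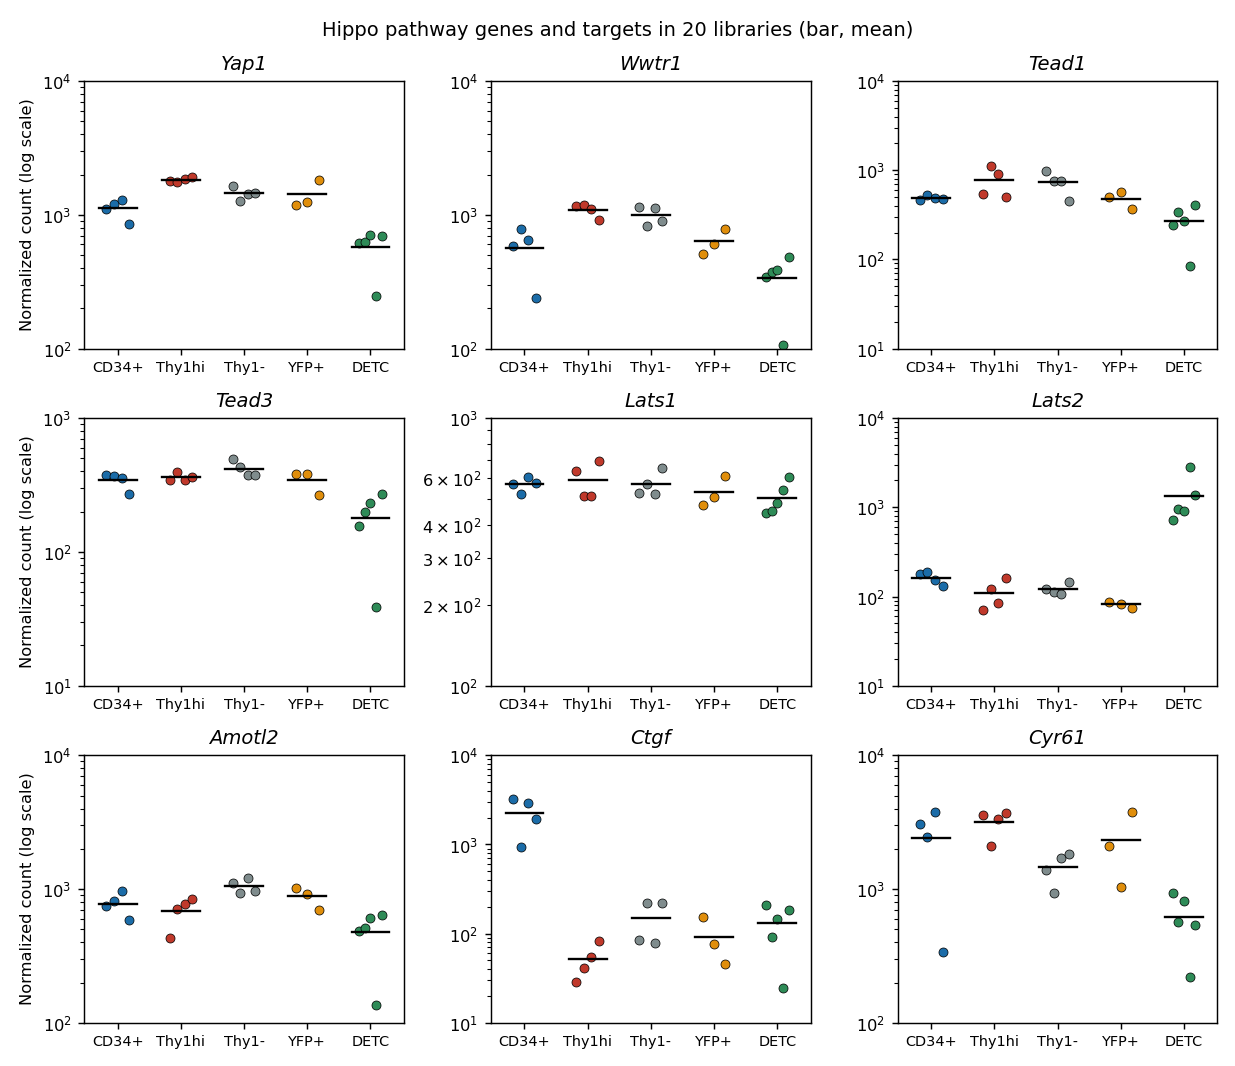
Normalized counts (log scale) of 9 members in each of 20 libraries, grouped by sorted population; each point is a library and each bar the mean of a population (4 CD34+ HFSC, 4 Thy1hi, 4 Thy1-, 3 YFP+ and 5 DETC libraries). Ctgf is high only in the HFSC libraries, at 936 to 3261, Lats2 is highest in the DETC libraries, at 714 to 2803, and Lats1 lies between 442 and 694 in all 20.

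Gene positions are those of the mm10 build. The co-activators Yap1 (chr9:7931999-8004596) and Wwtr1 (chr3:57455649-57575910) had their highest means in Thy1hi keratinocytes and their lowest in DETCs. Yap1 was at 1791, 1769, 1838 and 1929 normalized counts in the 4 Thy1hi libraries and at 1632, 1276, 1435 and 1453 in the 4 Thy1- libraries. It was at 1109, 1201, 1298 and 850 in HFSCs, at 1189, 1255 and 1817 in YFP+ cells, and at 619, 630.5, 700 and 693 in 4 DETC libraries and 248 in DETC library a. The Thy1hi libraries thus lay above all Thy1- and HFSC libraries, and the DETC libraries below all others, while the Thy1-, YFP+ and HFSC ranges overlapped as neighbours. Wwtr1 was at 1162, 1178, 1110 and 915 in Thy1hi cells, at 1153, 825, 1120 and 894 in Thy1- cells, at 510, 605 and 789 in YFP+ cells and at 581, 783, 644 and 240 in HFSCs. The Thy1hi and Thy1- ranges overlapped, and both lay above the YFP+ and HFSC ranges. In DETCs, Wwtr1 was at 341, 376, 387 and 486, and at 107 in library a. Per kilobase of exon, the means of the co-activators were close to each other, at 198 ± 7.65 normalized counts per kb for Yap1 and 228 ± 25.3 for Wwtr1 in Thy1hi libraries (SD, n = 4). In HFSCs these means were 120 ± 20.8 for Yap1 and 118 ± 48.3 for Wwtr1. In bulk samples, fewer cells of a type and less RNA per cell cannot be told apart.

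Of the DNA-binding partners Tead1 (chr7:112679318-112906807) and Tead3 (chr17:28331671-28350805), Tead3 had the more even means over the keratinocyte populations. The Tead1 means ran from 479 in YFP+ cells to 768 in Thy1hi cells. Tead1 ranged from 366 to 1112 over the keratinocyte libraries. Tead1 was at 548, 1112, 916 and 496 in Thy1hi cells, at 978, 751, 752 and 453 in Thy1- cells, at 462, 521, 483 and 481 in HFSCs and at 498, 574 and 366 in YFP+ cells, so all neighbouring ranges overlapped. In both basal populations the library of replicate 4 was the lowest. Tead3 had means of 419 ± 56.4 in Thy1- cells, 362 ± 24.9 in Thy1hi cells and 345 ± 48.4 in HFSCs (SD, n = 4 each), and 343 ± 68.3 in YFP+ cells (SD, n = 3). The DETC means were 268 ± 120 for Tead1 and 180 ± 89.4 for Tead3 (SD, n = 5). Per kilobase, both TEAD transcripts were below the co-activators, at 56.6 ± 21.8 normalized counts per kb for Tead1 and 53.9 ± 3.70 for Tead3 in Thy1hi cells.

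The 2 LATS kinases, which inhibit YAP and TAZ, had different profiles. Lats1 (chr10:7681214-7716460) was the most even member, with means between 503 ± 68.2 in DETCs (SD, n = 5) and 587 ± 91.8 in Thy1hi cells (SD, n = 4), and every neighbouring range overlapped. Lats2 (chr14:57689662-57758388) was at 714, 948, 900 and 1388 in 4 DETC libraries and at 2803 in DETC library a, against 70.7 to 189 over the other 15 libraries. Among the keratinocytes its means were 163 ± 27.0 in HFSCs, 121 ± 16.9 in Thy1- cells and 109 ± 39.8 in Thy1hi cells (SD, n = 4 each), and 81.4 ± 6.73 in YFP+ cells (SD, n = 3), and each of these ranges overlapped its neighbour's. The Lats2 exons share 42.4% of their bases with another annotated gene on the same strand. How reads in the shared part were counted is not given in the sources used here.

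Amotl2 (chr9:102716672-102733418) encodes an angiomotin-like scaffold that holds YAP at junctions and is itself induced by YAP. It was at 1119, 942, 1214 and 968 in Thy1- cells and at 431, 703, 776 and 847 in Thy1hi cells, and these groups did not overlap. HFSCs (586 to 961), YFP+ cells (694 to 1021) and DETCs (136 to 643) each overlapped at least 1 other population.

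The matricellular proteins CTGF and CYR61, both of the CCN family and both widely used as readouts of YAP and TEAD, did not follow one another across the populations. Ctgf (chr10:24595442-24598683) was at 3261, 936, 2902 and 1943 in HFSCs. It was at 28.7, 40.8, 55.3 and 82.5 in Thy1hi cells, at 85.1, 222, 78.1 and 219 in Thy1- cells, at 155.5, 77.4 and 45.6 in YFP+ cells and at 210.4, 92.5, 145, 24.7 and 183 in DETCs. The HFSC libraries lay above all others and the remaining populations overlapped as neighbours, from Thy1- cells (mean 151) through DETCs (131) and YFP+ cells (92.8) to Thy1hi cells (51.8). Cyr61 (chr3:145646976-145649981) was at 3565, 2113, 3315 and 3734 in Thy1hi cells and at 3062, 2430, 3781 and 339 in HFSCs, where the low value is that of replicate 4. It was at 2101, 1034 and 3791 in YFP+ cells, at 1379, 934, 1700 and 1824 in Thy1- cells and at 936, 572, 815, 221 and 534 in DETCs. Neighbouring ranges overlapped throughout. The Ctgf exons share 23.2% of their bases with the antisense gene Gm15270, whose mean was 55.4 in HFSCs and at most 6.24 in the other populations. Whether strand was used in counting is not given in the sources used here, so reads of this pair cannot be told apart.

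Ankrd1 (chr19:36111965-36119844), which encodes an ankyrin repeat protein often used as a YAP readout, was close to absent. It had 17 reads over the 20 libraries together, at most 3 in any library and none in 11 libraries, the 4 HFSC libraries included. A count of 0 allows up to 3 reads, which corresponds to 2.10 to 3.46 normalized counts per HFSC library (counting error only). Its highest value was 3.95 normalized counts, so Ankrd1 did not reach the required 10 in at least 3 libraries. Tests therefore cover the other 9 members.

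**Figure D2:**
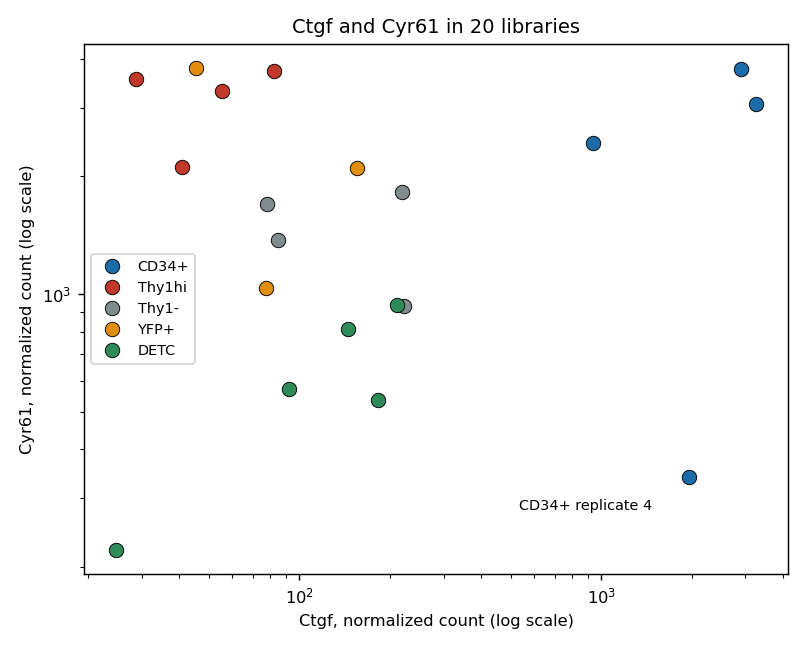
Ctgf (horizontal) against Cyr61 (vertical), normalized counts on log scales, 1 point per library and 1 colour per population (CD34+ are the HFSCs). The Thy1hi libraries sit at high Cyr61 (2113 to 3734) and low Ctgf (28.7 to 82.5), HFSC replicates 1 to 3 are high for both, and HFSC replicate 4 has Ctgf at 1943 and Cyr61 at 339.

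Per kilobase of exon, the ratio of Cyr61 to Ctgf was 64.2 to 176 in the Thy1hi libraries, 5.96 to 30.8 in the Thy1- libraries and 18.9 to 118 in the YFP+ libraries. It was 4.15 to 12.7 in the DETC libraries and 0.247 to 3.68 in the HFSC libraries. The Thy1hi range lay above the Thy1- range and the HFSC range lay below those of the other populations, as the plot of Ctgf against Cyr61 shows. Within populations, the targets were compared through the deviation of each library from its population mean on the log2(normalized count + 1) scale, over 20 libraries and for the 10 pairs of Ctgf, Cyr61, Ankrd1, Amotl2 and Lats2. None of the 10 pairs passed a permutation test (100000 resamples within populations, two-sided) after Benjamini-Hochberg adjustment. At an unadjusted p under 0.05 there were 2 pairs by Pearson's r and 2 by Spearman's rho. The closest pair by Pearson's r was Ctgf and Amotl2, with r = 0.67 (permutation p = 0.0260, adjusted p = 0.217) and rho = 0.49 (permutation p = 0.0413, adjusted p = 0.206). Without the 2 libraries farthest from the median of Ctgf, its r was 0.46. For Ctgf and Cyr61, r was 0.28 (permutation p = 0.285, adjusted p = 0.471) and rho 0.12 (permutation p = 0.651, adjusted p = 0.988), and r was 0.15 without those 2 libraries.

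The comparison of Thy1hi with Thy1- basal keratinocytes sets side by side populations sorted as α6+Sca1+ and split by Thy1. Their basal, differentiation and hair follicle markers differed too, as given below, so a difference cannot be tied to Thy1 alone. Cyr61 was 2.18-fold higher in Thy1hi cells by the ratio of means, Ctgf was 2.92-fold and Amotl2 1.54-fold higher in Thy1- cells, and Yap1 was 1.26-fold higher in Thy1hi cells. With all 5 populations in 1 fit and no block, none of the 9 members tested passed the limma test at an adjusted p of 0.05 (0.337% of all 17204 genes did, 0.116% higher and 0.221% lower in Thy1hi cells); at an unadjusted p under 0.05 there was 1 member, Ctgf, and edgeR and DESeq2 on whole reads called 0 members each. The libraries with the same replicate number tended to vary together in these populations, however. Their deviations from the population means correlated at 0.29 to 0.72 in the 4 same-numbered pairs. This range overlapped that of the 12 other combinations, at -0.65 to 0.51. A fit of both populations that took this number as a block called 6.61% of all genes. What the number stands for is not given in the sample titles, so this pairing was inferred from the same data. In that fit Cyr61 was higher by 1.14 ± 0.10 on the log2 scale (SE; limma adjusted p = 0.000333), and Ctgf (-1.46 ± 0.27, adjusted p = 0.0104) and Amotl2 (-0.66 ± 0.17, adjusted p = 0.0428) were lower in Thy1hi cells. Yap1 (0.34 ± 0.098, adjusted p = 0.0692) did not pass, nor did the other 5 members.

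**Figure D3:**
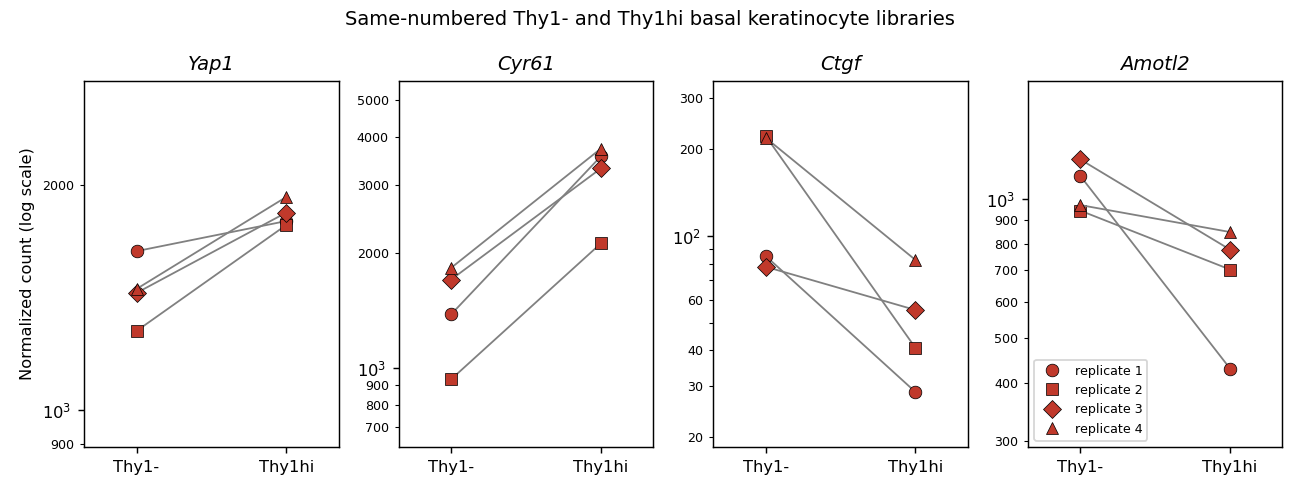
Normalized counts (log scale) of Yap1, Cyr61, Ctgf and Amotl2 in Thy1- and Thy1hi libraries, with a line joining the libraries of the same replicate number (4 pairs; 1 marker shape per number). Yap1 and Cyr61 are higher, and Ctgf and Amotl2 lower, in the Thy1hi library of each of the 4 pairs.

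Pair by pair, the log2 difference of Thy1hi minus Thy1- was 1.37, 1.18, 0.96 and 1.03 for Cyr61, and -1.54, -2.42, -0.49 and -1.40 for Ctgf in replicates 1 to 4. It was -1.38, -0.42, -0.64 and -0.19 for Amotl2 and 0.13, 0.47, 0.36 and 0.41 for Yap1. These 4 members moved one way in all 4 pairs, as did Tead3, which was lower in Thy1hi cells by 0.05 to 0.52 and was not called in the blocked fit (limma adjusted p = 0.369). The share of all genes that moved one way in all 4 pairs was not computed, so this describes the members only. The unpaired groups did not overlap for 3 members, Yap1, Amotl2 and Cyr61 (6.77% of all genes tested did not overlap, 3.59% higher and 3.17% lower), and an exact two-sided permutation test gave each p = 0.0286, the smallest it can give with 4 against 4 libraries. For Ctgf the groups overlapped and the exact permutation p was 0.0571. On the second principal component, replicate 4 of both populations lay within the range of the HFSC libraries. Without these 2 libraries the blocked fit still called Cyr61 (1.17, adjusted p = 0.00323), Ctgf (-1.48, adjusted p = 0.0464) and Amotl2 (-0.81, adjusted p = 0.0442). Keratin levels moved with the populations too: Krt5 was 67226 ± 15188 in Thy1hi and 31485 ± 9355 in Thy1- cells (SD, n = 4 each), and 5 of 7 basal keratinocyte markers were called higher and all 6 markers of differentiated keratinocytes lower in Thy1hi cells in the blocked fit. The summed level of 6 fibroblast markers was 186 to 1946 in Thy1hi libraries and at most 215 in Thy1- libraries. The summed level of 6 hair follicle stem cell markers did not overlap, at 682 to 987 in Thy1hi and 1906 to 2131 in Thy1- libraries, and Sox9 was the 1 of these 6 called in the blocked fit (-1.33, adjusted p = 0.000147). Of 6 Langerhans cell markers 4 were called lower in Thy1hi cells in that fit, with sums of 610.5 to 1514 in Thy1hi and 1064 to 2267 in Thy1- libraries. Of the 12 immediate early and heat shock genes, Dusp1 was called higher (0.60, adjusted p = 0.0167) and Hspa1a (-0.78, adjusted p = 0.0275) and Hspa1b (-0.45, adjusted p = 0.0463) lower. The part of these markers in the member differences was not tested.

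**Figure D4:**
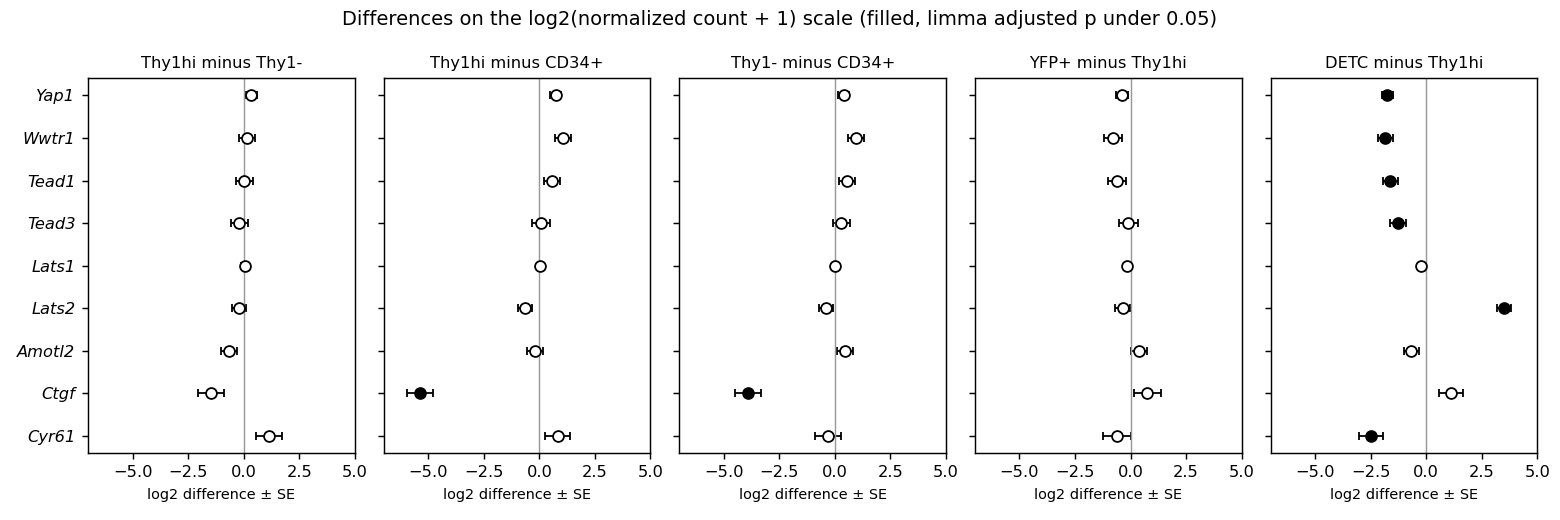
Log2 differences of 9 members (limma, mean ± SE on the log2(normalized count + 1) scale) in 5 comparisons, fitted over all 20 libraries with no block; filled points passed an adjusted p of 0.05. Ctgf is the only filled point in both comparisons with CD34+ HFSCs, at -5.37 and -3.91, and 6 members are filled in DETC minus Thy1hi.

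Against HFSCs, Ctgf was the member called by limma with no block. It was 43.6-fold higher in HFSCs than in Thy1hi cells by the ratio of means (log2 difference -5.37 ± 0.58, SE; limma adjusted p = 2.66e-06; exact two-sided permutation p = 0.0286, the smallest possible) and 15.0-fold higher than in Thy1- cells (-3.91 ± 0.58, adjusted p = 0.000275; exact permutation p = 0.0286). It was the 1 member of 9 called in each of these comparisons, where 13.4% (6.51% higher, 6.86% lower) and 6.08% (2.56% higher, 3.52% lower) of all genes were called. Both comparisons share the HFSC libraries. Yap1 (0.73 ± 0.25, adjusted p = 0.0584) and Wwtr1 (1.08 ± 0.37, adjusted p = 0.0592) in Thy1hi minus HFSC did not pass, although their libraries did not overlap (true of 3 members, and of 19.3% of all genes, 9.46% higher and 9.81% lower). Each of them passed in 3 of 20 alternative fits of this comparison. In Thy1- minus HFSC, Wwtr1, Tead3 and Ctgf did not overlap (13.6% of all genes, 6.16% higher and 7.42% lower), and Wwtr1 was at 0.94 ± 0.37 (adjusted p = 0.132). Markers of other cells moved with these comparisons. Summed over 6 melanocyte markers, levels were 739 to 1026 in HFSC, 107 to 195 in Thy1hi and 161 to 286 in Thy1- libraries. Most of these sums was Mitf, with means of 672 in HFSCs, 86.9 in Thy1hi and 141 in Thy1- cells. Tyr was at 16.6, 11.2 and 11.7 in the same order. Of 5 tested markers, 4 were called lower in Thy1hi cells and 2 in Thy1- cells. Of the 6 hair follicle stem cell markers, 6 and 5 were called lower. The part of these cells in the member differences was not tested. The values of Lats1 were close to 0 in both comparisons, at 0.04 ± 0.15 and -0.00 ± 0.15.

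HFSC replicate 4 entered these comparisons with low Cyr61 (339 against 2430 to 3781), low Wwtr1 (240 against 581 to 783) and low immediate early genes such as Fos (399 against 12337 to 13931), but with Ctgf at 1943, inside the range of the other HFSC libraries. Cyr61 is itself known as an immediate early gene, but whether this has a part in its low value in HFSC replicate 4 was not tested. With all 4 HFSC libraries, the log2 difference of Cyr61 was 0.82 ± 0.58 (adjusted p = 0.368) for Thy1hi minus HFSC and -0.31 ± 0.58 (adjusted p = 0.768) for Thy1- minus HFSC. Without HFSC replicate 4 these became 0.03 (adjusted p = 0.973) and -1.10 (adjusted p = 0.127). Without that library Yap1 was at 0.61 (adjusted p = 0.145) and Wwtr1 at 0.71 (adjusted p = 0.192) in Thy1hi minus HFSC, and Ctgf was at -5.40 and -3.94. Markers of Langerhans cells were also low in HFSC replicate 4, with Cd207 at 1.4 against 424 to 958 in the other HFSC libraries.

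In DETCs, 6 of 9 members were called against Thy1hi keratinocytes, where 36.6% of all genes were called. Lats2 rose 12.4-fold by the ratio of means (log2 difference 3.51 ± 0.30, SE; limma adjusted p = 1.32e-08). Lower in DETCs were Cyr61 (-2.49 ± 0.55, adjusted p = 0.00113), Wwtr1 (-1.83 ± 0.35, adjusted p = 0.000306), Yap1 (-1.75 ± 0.24, adjusted p = 6.34e-06), Tead1 (-1.61 ± 0.35, adjusted p = 0.000927) and Tead3 (-1.26 ± 0.37, adjusted p = 0.0094). The libraries of these 6 members did not overlap between the populations (33.2% of all genes, 18.8% higher and 14.4% lower), with an exact two-sided permutation p of 0.0159 each, the smallest that 5 against 4 libraries can give. Not called were Lats1 (-0.22 ± 0.14, adjusted p = 0.250), Amotl2 (-0.67 ± 0.33, adjusted p = 0.127) and Ctgf (1.11 ± 0.55, adjusted p = 0.122). The median difference of the 9 members was -1.26, beside -0.00 over all genes.

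**Figure D5:**
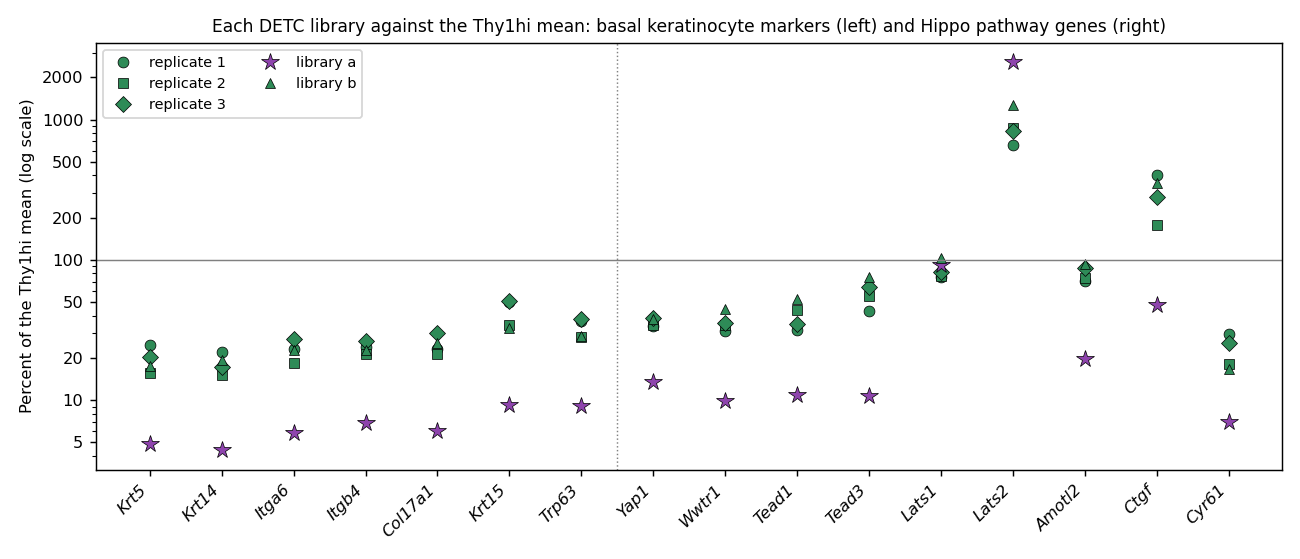
Level of each gene in each of 5 DETC libraries as a percent of the Thy1hi mean (log scale), for 7 basal keratinocyte markers (left of the dotted line) and 9 Hippo pathway genes (right); 1 marker shape per library, with library a as a purple star, and the horizontal line at 100%. Library a has the lowest percent of all 7 markers and of Yap1, Wwtr1, Tead1, Tead3, Amotl2, Ctgf and Cyr61, and the highest of Lats2.

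DETC library a was low in keratinocyte transcripts and in several members. The 7 basal keratinocyte markers were at 4.41% to 9.23% of the Thy1hi mean in library a and at 15.1% to 50.8% in the other 4 DETC libraries. Yap1 was at 13.6% in library a and 33.8% to 38.2% in the others, Wwtr1 at 9.81% and 31.3% to 44.6%, Tead1 at 10.9% and 31.7% to 52.6%, Tead3 at 10.6% and 43.3% to 75.0%, and Cyr61 at 6.94% and 16.8% to 29.4%. Amotl2 was at 19.7% in library a and 70.3% to 93.2% in the others. Among the other 4 DETC libraries, Krt5 and Krt14 were highest in replicate 1 and the other markers in replicate 3. Cyr61 was highest in replicate 1 and Yap1 in replicate 3. In contrast, Wwtr1, Tead1, Tead3 and Amotl2 were highest in library b, so these members did not follow the markers there. Lats1 was at 91.8% in library a, inside the range of 75.3% to 102.8% of the others. Lats2 went the other way, at 2572% of the Thy1hi mean in library a and 655% to 1274% in the others. Without library a, the 6 calls held, with Lats2 at 3.20, Cyr61 at -2.16, Yap1 at -1.47, Wwtr1 at -1.46, Tead1 at -1.23 and Tead3 at -0.78, and Ctgf was called as well, at 1.63 higher in DETCs (limma adjusted p = 0.00888). The part of keratinocyte RNA in the DETC values was not tested.

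The YFP+ keratinocytes, which carry the genetic Thy1 label, were compared with the sorted Thy1hi population. None of 9 members passed the limma test, where 0.0116% of all genes did, and none had an unadjusted p under 0.05; edgeR and DESeq2 on whole reads called 0 members as well. Wwtr1 (-0.80 ± 0.40, SE, adjusted p = 0.565) had libraries that did not overlap, at 510 to 789 against 915 to 1178 (10.5% of all genes did not overlap, 4.92% higher and 5.55% lower), and its exact two-sided permutation p of 0.0571 is the smallest that 3 against 4 libraries allow. The other members lay between -0.62 (Tead1 and Cyr61) and 0.76 (Ctgf). Among the YFP+ libraries alone, Cyr61 ranged from 1034 to 3791. Standard errors of the 9 members were 0.16 to 0.62 on the log2 scale.

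Other components of the pathway were taken from 4 lists. The upstream kinases and their adaptors (11 genes) include the MST kinases, MOB1 and the TAO and MAP4K kinases. In DETCs against Thy1hi cells 6 of 11 were called higher and 2 lower. Stk4, which encodes the kinase MST1, had means of 3472 in DETCs and 298 in Thy1hi cells (log2 difference 3.39 ± 0.25, SE, limma adjusted p = 1.68e-09), and Taok3 was higher by 2.04 ± 0.23 (adjusted p = 4.30e-07). Mink1 (-0.72 ± 0.13, adjusted p = 0.000208) and the MST scaffold Sav1 (-0.57 ± 0.18, adjusted p = 0.0174) were lower. Of the junctional and polarity regulators (14 genes) 10 were lower and none higher in DETCs; Amotl1, an angiomotin, was lower by 1.89 ± 0.27 (adjusted p = 1.38e-05) and the YAP-binding phosphatase Ptpn14 by 1.66 ± 0.35 (adjusted p = 0.000825). Across all genes, 19.9% were called higher and 16.6% lower. Most junctional genes were low in DETC library a. Wwc1, Wwc2, Frmd6, Fat1, Amotl1, Ptpn14, Ajuba, Wtip and Scrib were each lower there than in every other DETC library. Amotl1 was at 10.2% of the Thy1hi mean there and 30.3% to 38.4% in the other DETC libraries. Limd1 (66.8%, others 61.1% to 74.4%) and Nf2 (76.2%, others 72.1% to 107.4%) lay inside the range of the others. So did Amot (85.3%, others 53.3% to 105.8%) and Dchs1 (34.6%, others 10.1% to 239%). Fat4 was above the range of the others, at 272% against 120.4% to 175%. Among other TEAD factors and their VGLL co-factors (4 of 6 tested), Vgll4, a competitor of YAP for TEAD, was at 2526 in DETCs and 328 in Thy1hi cells (2.91 ± 0.21, adjusted p = 1.33e-09), and Tead4 was lower by 1.37 ± 0.31 (adjusted p = 0.00134).

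Other genes often used as YAP and TAZ readouts (16 genes, 15 tested) were lower in DETCs in 9 cases, led by Ccdc80 (-2.94 ± 0.76, adjusted p = 0.00394) and Myof (-2.28 ± 0.31, adjusted p = 6.39e-06), and higher in 2, Dock5 (2.41 ± 0.21, adjusted p = 2.20e-08) and Nt5e (1.93 ± 0.40, adjusted p = 0.000603), where 16.6% of all genes were lower and 19.9% higher. Against HFSCs the same list split. In Thy1hi minus HFSC, Gadd45a (1.97 ± 0.43, adjusted p = 0.0039) and Ccdc80 (2.66 ± 0.80, adjusted p = 0.0304) were higher in Thy1hi cells. Nt5e (-4.22 ± 0.42, adjusted p = 1.39e-06), Rbms3 (-2.67 ± 0.34, adjusted p = 2.09e-05) and Arhgef17 were lower, and 10 were not called (all genes: 6.51% higher, 6.86% lower). In Thy1- minus HFSC, Nt5e (-2.97 ± 0.42, adjusted p = 0.000179), Rbms3 (-1.67 ± 0.34, adjusted p = 0.00528) and Myof (-1.17 ± 0.33, adjusted p = 0.0371) were lower and none was higher (all genes: 3.52% lower, 2.56% higher). In both comparisons with HFSCs the TEAD family member Tead2 was lower in the basal cells, with means of 43.8 in HFSCs, 4.94 in Thy1hi cells and 5.80 in Thy1- cells, and so was the kinase Taok3. The LIM protein Limd1, which binds LATS kinases, was higher in Thy1hi cells than in HFSCs (0.79 ± 0.15, adjusted p = 0.00137). Without HFSC replicate 4, Taok3 and Ccdc80 were no longer called in Thy1hi minus HFSC (adjusted p = 0.0989 and 0.0877), nor was Taok3 in Thy1- minus HFSC (adjusted p = 0.0885).

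In Thy1hi minus Thy1- no gene of these 4 lists was called without the block. In the blocked fit, 4 readouts were higher in Thy1hi cells, among them Ccdc80 (1.43, adjusted p = 0.00456) and Myof (0.89, adjusted p = 0.00136), and 3 were lower, among them Nt5e (-1.25, adjusted p = 0.0122) and Arhgef17 (-1.01, adjusted p = 0.0431). Nf2, which encodes Merlin, an activator of LATS kinases, was higher (0.39, adjusted p = 0.0475), as was Amotl1 (0.43, adjusted p = 0.0303), while the kinase Tnik (-0.79, adjusted p = 0.00524) and the co-factor Vgll3 (-0.71, adjusted p = 0.0280) were lower. Across all genes this fit called 3.42% higher and 3.19% lower in Thy1hi cells. Without replicate 4 of both populations Tnik, Vgll3, Myof and Ccdc80 were still called. The other 7 kept their direction with an adjusted p over 0.05 in this smaller set of libraries, among them Nt5e (-1.23, adjusted p = 0.0620), Nf2 (0.37, adjusted p = 0.208), Amotl1 (0.37, adjusted p = 0.192) and Arhgef17 (-0.93, adjusted p = 0.168). In YFP+ minus Thy1hi no gene of the lists was called.

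The genes whose pattern was most like that of a member were taken as the 2 with the highest Pearson's r over the 15 keratinocyte libraries, on the log2(normalized count + 1) scale. These libraries share populations and depth, so r is a description. For Yap1 they were Cdc42ep1 and Man1c1 (r = 0.95 each), and for Wwtr1 Ece1 and Tnk1 (0.97 each). For Ctgf they were Cacna1c and Vwa2 (0.97 each), which followed the HFSC libraries. For Cyr61 they were Col17a1, a hemidesmosomal collagen of basal keratinocytes (0.91), and Anxa5 (0.91). For Amotl2 they were Kifc3 (0.87) and Card14 (0.86), for Lats2 Cand2 (0.93) and Foxo3 (0.90), and for Tead1 Lrch3 (0.95) and Olfr1023 (0.91). The values were lower for Tead3, with Fam214b (0.89) and Llgl2 (0.87), and lowest for Lats1, with Fgd1 (0.84) and Nhsl1 (0.84).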

How the data were processed

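The authors deposited normalized counts (a signal in reads divided by a size factor) for 53380 Ensembl genes and 20 libraries. Per the labels and methods, reads were aligned to mm10 with STAR, counted with featureCounts and normalized with DESeq2. Whole reads were recovered by rounding. Of the values checked, which left out the largest counts, 100% were whole reads in every library. In Thy1- replicate 4, 3212 rows followed another gene order and were put back; none of the 11 member rows moved. Genes with at least 10 normalized counts in at least 3 libraries (17204) were fitted with limma 3.58.1 on log2(value + 1), 1 mean per population, all 20 libraries, no covariate, two-sided, Benjamini-Hochberg over all genes, threshold 0.05 (R 4.3.3). The method was tested on simulated data. edgeR 4.0.16 and DESeq2 1.42.0 on whole reads were alternatives, with other pseudocounts, filters, scalings and libraries left out.

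Deviations from population means correlated at 0.29 to 0.72 in the 4 same-numbered pairs of Thy1hi and Thy1- libraries (-0.65 to 0.51 in the 12 other combinations). These ranges overlapped. The sample titles give only the number, so the pairing was inferred from these same data. A fit on both populations with the number as a block is given beside that comparison.

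Members and lists were chosen with earlier results of these data known. Named were all members, the 2 genes most like each member, and markers beside a result. From each list and comparison, up to 2 called genes with the largest rise and 2 with the largest fall were also named. Chosen after their values were seen were Arhgef17 in Thy1hi minus HFSC, Myof in Thy1- minus HFSC and the genes named from the blocked fit. The junctional genes other than Amotl1 and Ptpn14 were likewise added for DETC library a after their values were seen. Exon lengths and overlaps came from GENCODE M21 (GRCm38). Promoters came from RefSeq; Tead1 and Ctgf promoters and protein sequences were not used here.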

Additional observations from a re-analysis of the deposited data

Results flagged for a closer look

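Of 39 sets of 4 or 5 libraries examined for single outlying values among the members, 2 had a library whose gap to the others exceeded Dixon's 95% limit, about as many as chance gives at 1 in 20. Yap1 in DETC library a was at 248, while the other DETC libraries were at 619 to 700. Tead3 in HFSC replicate 4 was at 273, while the other HFSC libraries were at 359 to 375. Both libraries also stood apart in other transcripts described above, and a cause was not tested.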

How the results depend on the processing

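Over 20 alternatives each, Ctgf in both comparisons with HFSCs (log2 difference -5.75 to -5.12 and -4.29 to -3.66) and, over 21 alternatives each, Lats2, Yap1, Wwtr1, Tead1 and Cyr61 in DETC minus Thy1hi kept their direction and passed the threshold in each. Tead3 was lost (adjusted p = 0.0519) when only both populations were fitted. Members called in Thy1hi minus Thy1- went from 0 to 3 with the replicate block on both populations. They also went to 3 with that block without replicate 4 of both, which was added after seeing the data. In the other 20 of 22 alternatives, the block over all populations included, none of Cyr61, Ctgf and Amotl2 was called. In Thy1hi minus HFSC, members called went from 1 to 2 with only both populations, 4 with a replicate block over all populations (which changed no call of Ctgf; the numbers do not pair these populations) and 3 by DESeq2, and ranged from 1 to 2 when a library was left out (Wwtr1 was added without HFSC replicate 2). In Thy1- minus HFSC the block over all populations gave 2. In DETC minus Thy1hi, quantile normalization, which moved the median of all genes by -0.20, added Lats1 and Amotl2, and the block over all populations, where libraries a and b are each a block alone and carry no weight, added Ctgf, as did DESeq2 and leaving out library a.

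Genes called on the 4 pathway lists and the immediate early list together went, in Thy1hi minus Thy1-, from 0 to 1 with only both populations or the block over all, 14 with the block on both and 4 with that block without replicate 4. In Thy1hi minus HFSC they went from 8 to 16 with the block over all populations. In Thy1- minus HFSC they went from 5 to 3 without a filter, to 8 with a mean of at least 50, quantile normalization or without replicate 4 of both basal populations, to 16 with the block and to 13 by DESeq2, and from 3 (without Thy1- replicates 1, 2 or 3) to 8 (without replicate 4) when a library was left out. In YFP+ minus Thy1hi they went from 0 to 2 with the block and to 2 by DESeq2.

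Differences near 0, none of them called, changed sign. In Thy1hi minus Thy1-, Tead1 was -0.0382 rescaled without Rn45s, -0.0171 with quantile normalization and -0.18 to 0.22 with a library left out, and Lats1 was -0.0287 rescaled and -0.0387 to 0.11 with a library left out. In Thy1hi minus HFSC, Lats1 was -0.0452 with quantile normalization, -0.0405 without replicate 4 of both basal populations and -0.0405 to 0.11 with a library left out, Tead3 was -0.0308 to 0.12 and Amotl2 -0.33 to 0.0135. In Thy1- minus HFSC, Lats1 was 0.13 rescaled (which moved the median of all genes by 0.16), 0.0041 by DESeq2 and -0.0705 to 0.0353 with a library left out, and Cyr61 was -1.10 to 0.0535 (-1.10 without HFSC replicate 4). In YFP+ minus Thy1hi, Tead3 was -0.18 to 0.0843. No pair of targets passed in any alternative, and the population with the highest mean changed for 1 of 9 members, Lats1, when rescaled.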
